A study of Rattus norvegicus with 7 samples.

Results

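Tp53inp1 and 8 other genes that the transcription factor p53 is known to switch on (Sesn1, Fas, Bbc3, Cdkn1a, Mdm2, Ccng1, Bax and Gadd45a) were followed in rat alveolar macrophages exposed to zinc oxide nanoparticles (ZnO NPs). The 9 genes were selected on their pathway and, in part, on their log2 fold changes between these same ZnO and control arrays, so their ZnO differences are given as a description. Every non-control probe that carried one of the 9 gene names was kept. That gave 15 probes of the 45598 on the array, among them 4 for Tp53inp1, and 14 of the 15 were among the 20043 probes bright enough to be tested.

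The cells were NR8383, an established macrophage line derived from rat lung lavage, held without serum during the exposure. Control cells (4 arrays) received no particles, and exposed cells (3 arrays) received ZnO NPs for 4 h. The labels give 2 µg/mL for the exposed cells, whereas the methods of the study name a higher dose, so the dose is uncertain. No genotype or other agent set the groups apart. All 7 arrays lay on 1 slide, control arrays in its first row and ZnO arrays in its second, so the place on the slide and the exposure cannot be told apart.

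In a resting cell p53 is kept low by the ubiquitin ligase Mdm2, itself a p53 target, which closes a feedback loop. After DNA damage or other stress p53 accumulates and drives genes for cell cycle arrest, for cell death and for repair and antioxidant defence. Tp53inp1 lies both downstream and upstream of p53: it is induced by p53, favours p53 phosphorylation, and takes part in autophagy. In macrophages p53 is also known as a brake on inflammatory gene programmes.

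To show what was hybridised, 4 of the probes with at least 1 open reading frame across the 60 bases are printed, as deposited, in the sense of the transcript. They are the tested Sesn1 and Fas probes, the brighter Bax probe and the first of the 4 Tp53inp1 probes along the locus, which is not the Tp53inp1 probe with the largest difference. Capitals mark the stop codon that closes the Bax probe. No annotation of the files' build, rn4, was used here, so exons and untranslated regions were not assigned.
Tp53inp1 probe A_44_P1086410, chr5:25009229-25009288, plus strand: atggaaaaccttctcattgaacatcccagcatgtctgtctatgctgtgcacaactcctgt
Sesn1 probe A_64_P389571, chr20:45876719-45876778, plus strand: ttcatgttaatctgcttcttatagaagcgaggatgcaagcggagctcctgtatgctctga
Fas probe A_44_P463745, chr1:238259523-238259582, plus strand: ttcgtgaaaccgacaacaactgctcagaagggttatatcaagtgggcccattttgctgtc
Bax probe A_44_P1164081, chr1:95933023-95933082, minus strand: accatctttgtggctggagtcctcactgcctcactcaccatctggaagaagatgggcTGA

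Promoters were read from RefSeq (build GRCr8, 250 bases before to 50 after the gene start), where 6 of the 9 genes had an entry. These windows were searched for the p53 half-site consensus, a palindromic motif of 10 bases that reads alike on both strands and of which a full p53 element holds a pair. A match was present in 4 of the 6 (Gadd45a, Ccng1, Cdkn1a and Sesn1) and in 7.98% of all 33469 promoters of the same length. Neither Fas nor Mdm2 held those letters in the window. The half-site is in capitals in the lines that follow, 5′ to 3′ along the gene, and a match of letters is not a measured binding site.
Gadd45a, chr4:97486820-97486865, minus strand, half-site starting 48 bases before the gene start: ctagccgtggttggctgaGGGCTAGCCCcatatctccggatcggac
Ccng1, chr10:25685081-25685126, minus strand, starting 232 bases before: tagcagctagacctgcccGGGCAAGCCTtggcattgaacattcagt
Cdkn1a, chr20:7150713-7150758, plus strand, starting 201 bases before: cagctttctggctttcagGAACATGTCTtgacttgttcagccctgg
Sesn1, chr20:46948529-46948574, plus strand, starting 172 bases before: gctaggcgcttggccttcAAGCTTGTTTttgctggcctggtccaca

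Levels are log2 intensities of a probe after subtraction of the log2 75th percentile of its array, so 0 means as bright as that percentile, and they are compared between arrays for 1 probe at a time. Signal at the 75th percentile ranged from 958 to 1489 intensity units on control arrays and from 980 to 1603 on ZnO arrays. Between 51.7% and 56.0% of spots were well above background, 0 spots were saturated, and Pearson correlations between arrays were 0.991 to 0.997. The labelled cell type was borne by its markers: 9 of 12 macrophage markers, including Cd68, Csf1r and Cd14, were well above background on all arrays. Adgre1 was so on some arrays and Marco on none, and Itgax had no probe. The summed intensity of the macrophage markers was 136 to 145 times the 75th percentile on control arrays and 137 to 156 times on ZnO arrays. Of the lymphocyte markers 0 of 6 were well above background on any array (Cd79a had no probe). Of the epithelial markers 0 of 7 were so on all arrays, and Sftpc and Scgb1a1 were so on some. Pecam1, Cdh5 and Vwf of the 5 endothelial markers were well above background on all arrays, with sums of 2.59 to 3.47 times the percentile in control and 2.71 to 3.89 in ZnO cells, as were Col1a2 and Dcn of 6 fibroblast markers and Mpo and Camp of 5 neutrophil markers. Tek (endothelial) and S100a8 (neutrophil) were so on some arrays only. The part of these transcripts in the results was not tested. A lower level of a transcript over the whole culture does not separate fewer cells that express it from less RNA per cell.

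None of the 9 p53 genes passed the test between ZnO and control cells. In limma, with Benjamini-Hochberg adjustment over all probes tested, 0 of the 14 member probes had an adjusted p under 0.05, and the smallest adjusted p of a member was 0.645. Over all tested probes, 10 (0.0499%) were called higher after ZnO and 0 (0%) lower. Without adjustment, 1 member (Sesn1) was higher and 3 (Tp53inp1, Fas and Bbc3) were lower at a p under 0.05, beside 614 probes higher (3.06%) and 573 lower (2.86%) among all tested. That count of 4 members fell to 2 with the normexp background correction and in the deposited median intensities, and to 0 under spike-in centring. The count over all 20043 tested probes fell too, from 1187 to 621, 712 and 36 in that order. For 3 members each ZnO array was lower than each control array, as for 3.59% of all tested probes, and for 0 members each was higher, as for 3.8%. These counts were fixed in part by the choice of the genes and nothing is read from them. Over the brightest tested probe of each gene, the median log2 fold change was -0.08, against -0.01 over all tested probes, whose 5th and 95th percentiles were -0.26 and 0.26.

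**Figure D1:**
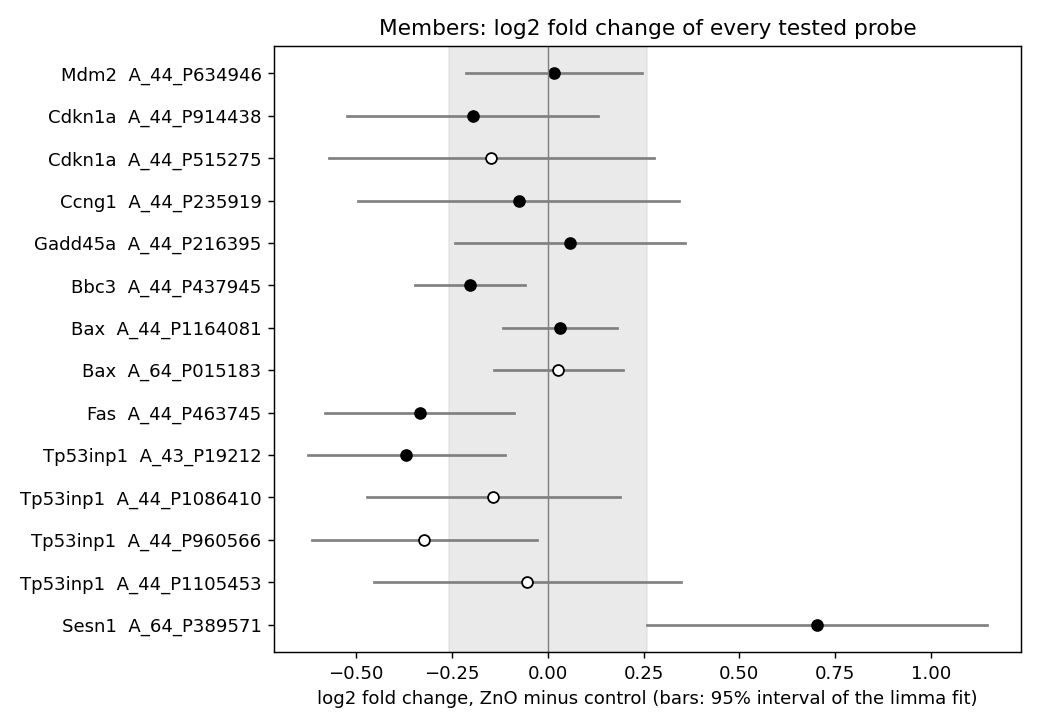
Log2 fold change (ZnO minus control, x axis) of each of the 14 tested probes of the 9 genes, with the 95% interval of the limma fit as a bar. Filled circles are the brightest tested probe of a gene, open circles its other probes, and the grey band spans the 5th to 95th percentile of all tested probes (-0.26 to 0.26). Sesn1 (0.70) lies to the right of the band, and Tp53inp1 (-0.37 and -0.32) and Fas (-0.33) lie to its left.

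Mdm2, the ligase that keeps p53 low, had a difference near 0. Its probe read -0.87, -0.70, -0.79 and -0.70 on control arrays 1 to 4 and -0.95, -0.66 and -0.63 on ZnO arrays 1 to 3. The ZnO arrays spanned the whole control range, 1 below it and 2 above it. The log2 fold change was 0.02 ± 0.10 (SE), with a 95% interval from -0.21 to 0.25, and its sign turned under median centring of the arrays and without control replicate 1, ZnO replicate 2 or ZnO replicate 3.

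Among the arrest genes, Cdkn1a, the cyclin-dependent kinase inhibitor p21, was measured by a bright probe spotted 10 times on each array. That probe read 2.26, 2.57, 2.26 and 2.57 on control arrays and 1.96, 2.26 and 2.43 on ZnO arrays. ZnO replicate 1 was the lowest of all arrays and the other two ZnO arrays lay within the control range. This gave a log2 fold change of -0.20 ± 0.14 (95% interval -0.52 to 0.13). A second, dimmer Cdkn1a probe gave -0.15 ± 0.18. The repeated spots show the spread within an array: with 7 outlier spots dropped over all arrays, the SD between spots of 1 array was 0.03 to 0.05. The SD between arrays was 0.18 for control and 0.24 for ZnO cells. Spots of 1 array share its RNA and hybridisation, so the SD between spots holds no variation between arrays, technical or other.

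Ccng1, cyclin G1, a p53 target that acts with a phosphatase on Mdm2, read 1.08, 1.53, 1.1 and 1.42 on control arrays and 0.83, 1.32 and 1.46 on ZnO arrays. Here too control replicates 2 and 4 were high, replicates 1 and 3 low, and ZnO replicate 1 lowest. Its log2 fold change was -0.08 ± 0.18 (95% interval -0.50 to 0.34), with the sign turned under spike-in centring (scaling on control RNA added to each sample), when arrays were weighted by their precision, and without control replicate 2 or ZnO replicate 1. Gadd45a, a stress sensor that restrains the cell cycle and assists repair, read 0.02, 0.04, 0.35 and 0.47 on control arrays and 0.40, 0.23 and 0.21 on ZnO arrays. All 3 ZnO arrays lay inside the control range. The log2 fold change of Gadd45a was 0.06 ± 0.13, with the sign turned without control replicate 1, control replicate 2 or ZnO replicate 1.

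Of the death genes, Bbc3 (Puma), a BH3-only protein that neutralises anti-apoptotic BCL2 proteins, had the tightest groups. It read 2.08, 2.11, 2.02 and 2.08 on control arrays and 1.84, 1.87 and 1.89 on ZnO arrays. The groups did not overlap. On average the ZnO arrays were lower by a log2 fold change of -0.20 ± 0.06 (95% interval -0.35 to -0.06, adjusted p = 0.720 in limma), that is 0.869 times the control level. Under spike-in centring it was -0.10 and the groups overlapped. The files do not place the Bbc3 probe on the genome.

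Bax, the BCL2 family member that opens the outer mitochondrial membrane, did not move with Bbc3. Its brighter probe, the one printed with its stop codon, read 2.60, 2.66, 2.66 and 2.72 on control arrays and 2.72, 2.69 and 2.67 on ZnO arrays. The groups overlapped and all 3 ZnO arrays lay within the control range. The log2 fold change was 0.03 ± 0.06, with an interval of -0.12 to 0.18, and -0.01 under median centring. A second Bax probe gave 0.03 ± 0.07.

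Fas, the death receptor at the cell surface, was dim but detected by the printed probe on all arrays. It read -4.07, -3.96, -3.73 and -3.90 on control arrays and -4.09, -4.34 and -4.32 on ZnO arrays. Each ZnO array was lower than each control array, the nearest pair being ZnO replicate 1 and control replicate 1. For Fas the log2 fold change was -0.33 ± 0.11 (95% interval -0.58 to -0.09, adjusted p = 0.728 in limma). The groups overlapped under the normexp background correction (a model of signal plus background), in the deposited median intensities and under spike-in centring. The other Fas probe was well above background on 3 arrays only and was not tested. It read -6.64, -5.96, -6.42 and -6.48 on control arrays and -6.22, -5.10 and -4.97 on ZnO arrays, so the direction of the means was opposite to that of the printed probe.

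**Figure D2:**
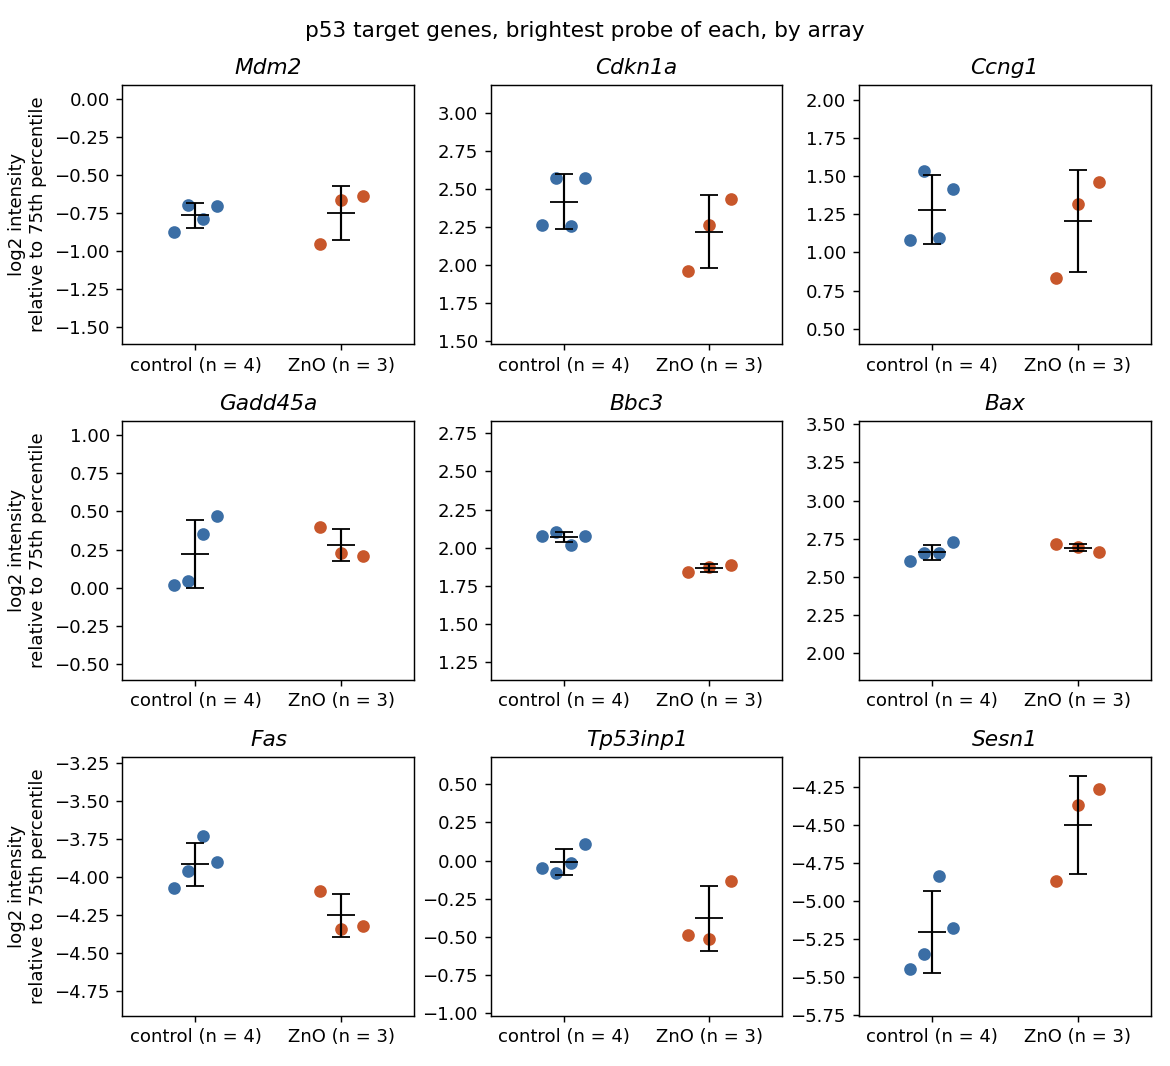
Log2 intensity over the 75th percentile of the array (y axis, the same span in every panel) of the brightest tested probe of each gene on each control (n = 4) and ZnO (n = 3) array. Points are arrays in replicate order from left to right, and bars are the mean ± SD. The groups do not overlap for Bbc3, Fas and Tp53inp1, and Ccng1 and Sesn1 show wide spreads within both groups.

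Tp53inp1, the gene at the centre of the set, was read at 4 places spread over 7738 bases of chromosome 5. The brightest probe (A_43_P19212, chr5:25011953-25012012) read -0.05, -0.08, -0.02 and 0.11 on control arrays and -0.49, -0.51 and -0.13 on ZnO arrays. All ZnO arrays were below all control arrays, and ZnO replicate 3 was close to the control range. The log2 fold change was -0.37 ± 0.11 (95% interval -0.63 to -0.11, adjusted p = 0.714 in limma), that is 0.774 times the control level, and it was -0.49 without ZnO replicate 3. In the deposited median intensities (-0.28) and under spike-in centring (-0.27) the groups overlapped.

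The probe A_44_P960566, 628 bases from the first, gave the same order of groups. It read -2.76, -2.75, -2.48 and -2.75 on control arrays and -2.94, -3.26 and -2.82 on ZnO arrays, with all ZnO arrays below all control arrays and a log2 fold change of -0.32 ± 0.13. The printed probe at the start of the stretch read -1.46, -1.64, -1.23 and -1.42 on control arrays and -1.31, -1.81 and -1.62 on ZnO arrays. Its groups overlapped, with ZnO replicates 1 and 3 inside the control range and ZnO replicate 2 below it. The log2 fold change of this probe was -0.14 ± 0.14. The last probe, A_44_P1105453, read -3.11, -2.92, -3.31 and -3.41 on control arrays and -3.48, -3.35 and -2.89 on ZnO arrays, a log2 fold change of -0.05 ± 0.17. The ZnO arrays of this last probe were spread beyond both ends of the control range, and ZnO replicate 3 was the brightest of the 7. Thus 2 of the 4 probes had all ZnO arrays below all control arrays, as for 3.59% of all tested probes. The 4 probes read the same 7 arrays and are not replicates of the exposure. Since the gene was chosen in part on this comparison, nothing is read from the count. Averaged over the 4 probes, the log2 fold change of Tp53inp1 was -0.22 and the groups overlapped, since ZnO replicate 3 (-1.86) was above control replicate 4 (-1.87).

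**Figure D3:**
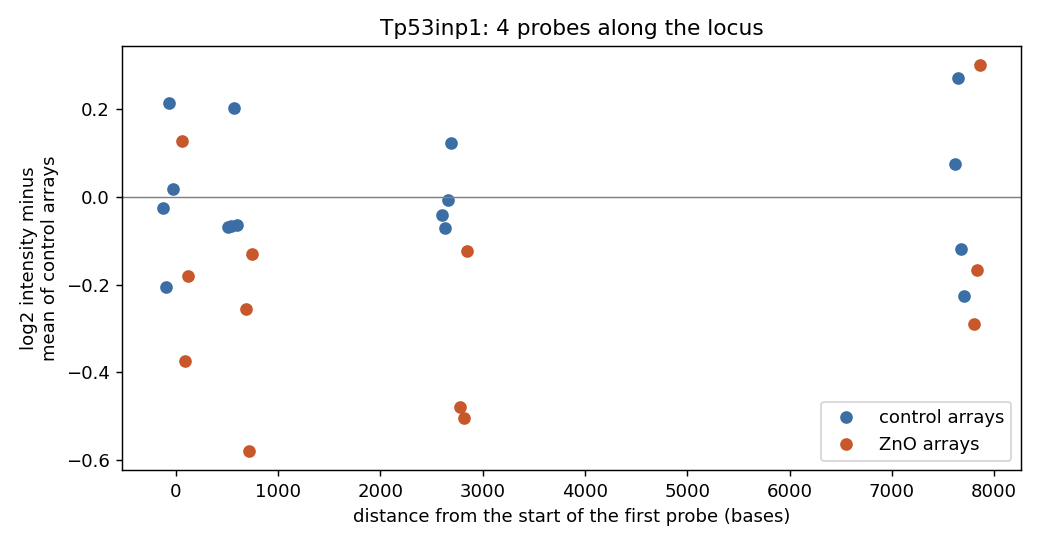
Log2 intensity with the control mean subtracted (y axis) for the 4 Tp53inp1 probes, placed by the distance of their start from that of the first probe (x axis, bases). Points are single arrays, set slightly apart sideways for legibility, and the ZnO arrays lie below all control arrays at 628 and 2724 bases only.

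Sesn1, sestrin 1, which restrains mTORC1 signalling and takes part in peroxide defence, was the member farthest from 0. It read -5.45, -5.35, -4.84 and -5.18 on control arrays and -4.87, -4.37 and -4.26 on ZnO arrays. The groups overlapped, ZnO replicate 1 lying just under control replicate 3. Its log2 fold change was 0.70 ± 0.19 (95% interval 0.26 to 1.15, adjusted p = 0.645 in limma), that is 1.63 times the control level. Sesn1 was near the detection limit: it was not well above background on control replicate 4 and entered the test through the ZnO group, where it was brighter. With the normexp background correction the log2 fold change fell to 0.26.

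The levels of Ccng1, Cdkn1a and Mdm2 varied from array to array in a partly shared order, in which ZnO replicate 2 was high for Mdm2 but not for Cdkn1a. Control replicates 2 and 4 were high in all 3, control replicates 1 and 3 were lower, and ZnO replicate 1 was the lowest of the 7 arrays. Over the 7 arrays, Ccng1 and Cdkn1a had a Pearson r of 0.92 (exact permutation test, two-sided p = 0.00397) and a Spearman rho of 0.79 (exact permutation p = 0.0480). Ccng1 and Mdm2 had an r of 0.92 (exact permutation p = 0.00556) and a rho of 0.82 (exact permutation p = 0.0341). Cdkn1a and Mdm2 had an r of 0.76 (exact permutation p = 0.0474) and a rho of 0.50 (exact permutation p = 0.267). After adjustment over all 36 pairs of members none passed: the adjusted exact permutation p was 0.1 for the first 2 pairs and 0.285 for the last, and for rho 0.346, 0.346 and 0.778.

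Removing the group means left the 3 genes as close or closer, with r of 0.98, 0.95 and 0.92 for the pairs in the same order. Without the 2 arrays farthest from the median of 1 gene of the pair (Cdkn1a, Mdm2 and Cdkn1a in turn), r was 0.91, 0.74 and 0.83. For Cdkn1a these were control replicates 2 and 4, so ZnO replicate 1 stayed in. For Mdm2 they were ZnO replicate 1 and control replicate 1. Without ZnO replicate 1, r was 0.83, 0.84 and 0.47, with exact permutation p of 0.0611, 0.0444 and 0.357. Other probes followed Ccng1 as closely: 0.619% of the other tested probes had a higher correlation with Ccng1 than Cdkn1a did, and 1.16% of all tested probes had an r above 0.9. Of the 50 other p53 pathway genes tested, 1 (2%) had such an r. That gene was Aen, a p53-induced nuclease of apoptotic cells, with an r of 0.97 to Ccng1, values of 1.37, 1.64, 1.36 and 1.59 on control arrays, and 1.00, 1.47 and 1.64 on ZnO arrays. Bax had r from -0.05 to 0.11 with the 3 over the 7 arrays, although over the 4 control arrays alone r was 0.60 with Ccng1, 0.72 with Cdkn1a and 0.82 with Mdm2. With Gadd45a, Bax had an r of 0.82 (exact permutation p = 0.0260, adjusted 0.234) that fell to 0.39 under median centring.

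**Figure D4:**
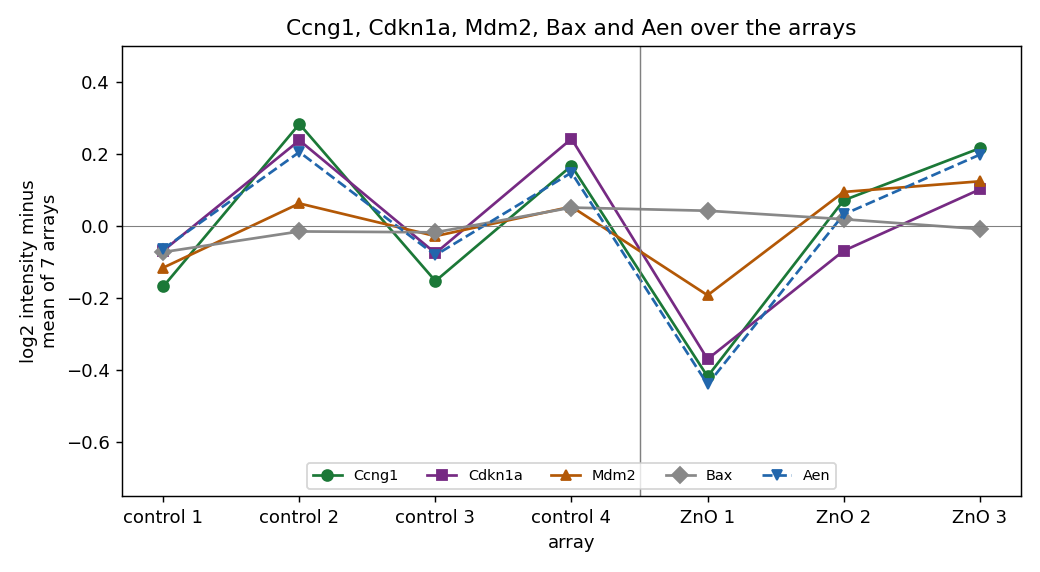
Log2 intensity minus the gene's mean over 7 arrays (y axis) for Ccng1, Cdkn1a, Mdm2, Bax and Aen on each array (x axis), with a vertical line between control and ZnO arrays. Ccng1, Cdkn1a and Aen are high on control replicates 2 and 4 and lowest on ZnO replicate 1, Ccng1 and Aen are high again on ZnO replicate 3, and Bax stays near 0 throughout.

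The wider p53 pathway was examined in 6 lists with 69 genes, of which 50 had a tested probe. In limma 0 of the 50 had an adjusted p under 0.05. At an unadjusted p under 0.05 there was 1 gene higher and 1 lower, beside 3.06% higher and 2.86% lower among all tested probes. The median log2 fold change over the 50 was -0.04, against -0.01 over all tested probes, and 20 of the 50 lay above 0. The share above 0 over all tested probes was not counted, so nothing is read from the 20.

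Of the regulators of p53 18 of 23 were tested and 0 passed the adjusted test, with a median of -0.02. Rchy1, a ubiquitin ligase that targets p53, was the gene higher at an unadjusted p under 0.05. It read -3.49, -3.33, -3.39 and -3.44 on control arrays and -3.17, -3.16 and -3.17 on ZnO arrays. Each ZnO array was higher than each control array, as for 3.8% of all tested probes. The log2 fold change of Rchy1 was 0.25 ± 0.07, with an adjusted p of 0.643 in limma. Cdkn2a, which encodes the Mdm2 inhibitor Arf as well as p16, had a log2 fold change of -0.45 ± 0.30. It was dim, with means of -5.26 on control and -5.71 on ZnO arrays. Only 5 arrays were well above background, so Cdkn2a entered the test through 1 group only. Chek1, a checkpoint kinase, had 0.32 ± 0.20.

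In the arrest list 4 of 10 genes were tested and 0 passed. Ccng2, an atypical cyclin, had a log2 fold change of -0.21 ± 0.09, Plk3, a stress-activated polo-like kinase, had 0.17 ± 0.11, and Gadd45b, a relative of Gadd45a, had -0.08 ± 0.13. In the death list 10 of 13 were tested and 0 passed. Ei24, a membrane protein of the endoplasmic reticulum, had -0.20 ± 0.17, Phlda3, an inhibitor of AKT, had -0.14 ± 0.13, and Aen had -0.12 ± 0.16. In the repair and nucleotide list 5 of 7 were tested and 0 passed. Xpc and Ddb2, which recognise bulky DNA lesions, had -0.15 ± 0.10 and 0.14 ± 0.15, and Polk, a translesion DNA polymerase, had -0.04 ± 0.07.

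In the list of metabolism, redox control and autophagy 11 of 12 were tested and 0 passed, with a median of -0.05. Dram1, a lysosomal membrane protein that p53 uses to raise autophagy, was the gene lower at an unadjusted p under 0.05. It read -2.25, -2.0, -2.01 and -2.41 on control arrays and -2.68, -2.52 and -2.48 on ZnO arrays. Each ZnO array was lower than each control array, as for 3.59% of all tested probes. Its log2 fold change was -0.40 ± 0.12, with an adjusted p of 0.714 in limma. Tp53inp2, the paralogue of Tp53inp1, had -0.28 ± 0.19, and Sesn2, a stress-induced relative of Sesn1, had -0.27 ± 0.20. In the list of secreted products 2 of 4 were tested and 0 passed: Gdf15, a stress cytokine, had 0.22 ± 0.16 and Igfbp3, an IGF carrier, had -0.04 ± 0.09.

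**Figure D5:**
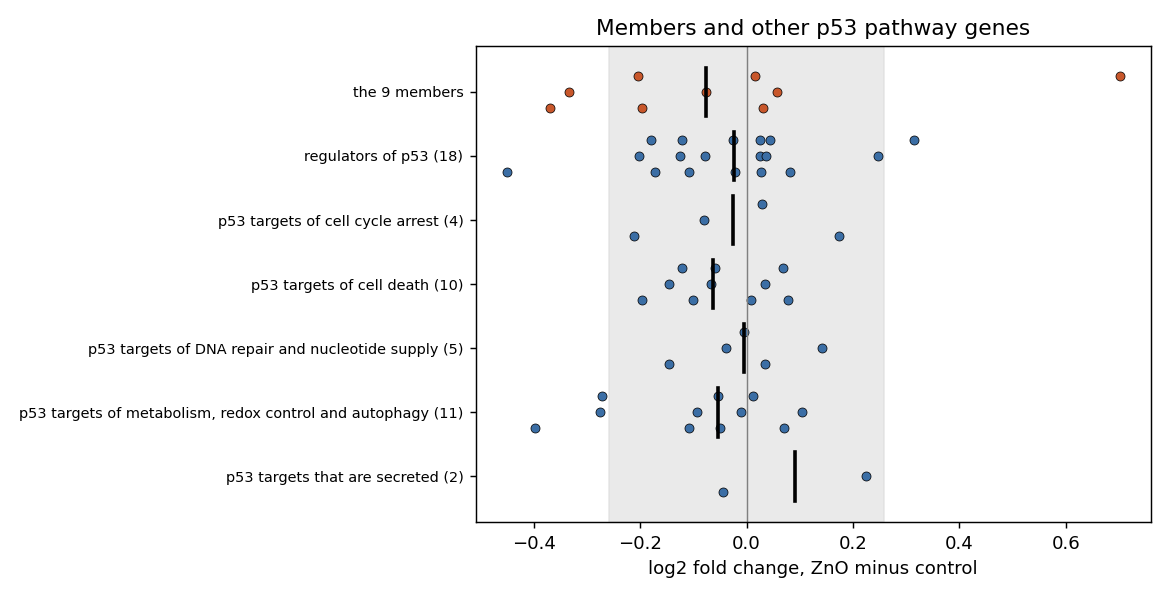
Log2 fold change (ZnO minus control, x axis) of the 9 members and of the tested genes of 6 other p53 lists (rows, with the number tested), 1 point a gene at its brightest tested probe. Thick bars are the medians, the grey band spans the 5th to 95th percentile of all tested probes (-0.26 to 0.26), and points are offset vertically for legibility only. The medians of the 6 lists lie between -0.06 and 0.09.

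The genes whose levels over the 7 arrays were most like those of the brightest Tp53inp1 probe, among 10365 named genes well above background on all arrays, were Disp1 (r = 0.99), Mical2 (0.98), Slc5a1l1 (0.98), Ift172 (0.97) and Ankhd1 (0.96). Disp1, a membrane protein that releases Hedgehog ligands, read -2.96, -3.02, -2.96 and -2.82 on control arrays and -3.36, -3.33 and -3.10 on ZnO arrays, a log2 fold change of -0.32 ± 0.09. The genes most like the mean of the 9 members were Tfr2 (r = 0.98), H2az1 (0.98), Procr (0.96), Sema4a (0.96) and Bltp3b (0.96). The mean of the members itself, each centred on its own mean, was -0.11, 0.03, 0.05 and 0.11 on control arrays and -0.14, -0.01 and 0.08 on ZnO arrays. The groups overlapped almost fully and differed by -0.04. These correlations are the highest of 10365 over only 7 arrays and are given as a description.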

How the data were processed

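RNA of control (4) and ZnO-exposed (3) NR8383 cells was hybridised to one-colour Agilent rat arrays. The authors extracted the scans with Agilent Feature Extraction 11.0.1.1, and the deposited array files hold a background-subtracted, detrended intensity for each spot, not normalised between arrays. A deposited table of all arrays holds the scanner's median intensity, equal on 100% of spots, and served as an alternative. The study's methods name percentile normalization, Benjamini-Hochberg adjustment and thresholds on p and fold change, without naming the test that gave the p.

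Here the log2 intensity minus the log2 75th percentile over the 58717 non-control spots was used, and repeated spots of a probe were averaged once outlier spots had been dropped. Tested were the 20043 probes that stood well above background throughout the control group, the ZnO group or both. Groups were compared in limma 3.58.1 (R 4.3.3), without covariates, with Benjamini-Hochberg adjustment. The fit was also run on simulated data, with changes larger than those of any member. That run therefore does not show whether differences of the members' size would be called. Names came from RefSeq by accession (21109 probes) or symbol (7115), and otherwise from the files (17374). A gene is given by its brightest tested probe. Intervals rest on the number of arrays, which limits the precision.

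The members and lists were chosen with earlier results of these data known. Some genes of the lists are not reported here and were left out of the list counts. Named were all members, up to 3 genes of each list with the largest absolute log2 fold change, and the 5 genes most correlated with Tp53inp1 and with the members' mean. Alternatives were median, spike-in (247 E1A spots) and quantile scaling, normexp with an offset of 50, the deposited table, 2 other filters, 3 other variance models, a replicate block, the mean of a gene's probes, and leaving out each array. The series' text calls the samples biological replicates. Correlations between members and their alternatives were chosen after seeing the data.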

Additional observations from a re-analysis of the deposited data

Results flagged for a closer look

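Among the 14 tested member probes, the 4 control arrays of 2 probes had 1 array set apart from the others by more than Dixon's 95% limit for the gap over the range. Chance alone sets apart about 1 in 20 such groups. For the Tp53inp1 probe A_44_P960566, control replicate 3 (-2.48) was higher than the other control arrays (-2.76 to -2.75), with a gap of 0.984 of the range. For the dimmer Bax probe A_64_P015183, control replicate 4 (1.69) was lower than the others (1.78 to 1.80), with a gap of 0.880 of the range. ZnO groups of 3 arrays were not examined in this way.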

How the results depend on the processing

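The count of members past an adjusted p under 0.05 was 0 under every alternative run, as was the count of other p53 pathway genes. Over all probes the 10 calls became 5 under spike-in centring, 4 with the replicate block and 5 when dim probes were kept, and 7 to 14 when 1 array was left out, the 14 being without ZnO replicate 1. It was 14 with a trended robust variance and 15 with array weights, each with 4 probes lower. Members with all ZnO arrays on one side of all control arrays numbered 3, beside 7.38% of all tested probes. They numbered 0 under spike-in centring (0.105% of probes), 1 in the deposited table (5.66%) and 2 with normexp (5.23%). With the mean of a gene's probes, which left all other probes unchanged, they numbered 2. When 1 array was left out they numbered 3 to 5 (10.6% to 22.1%). The 5, with Sesn1 and Mdm2 added above, and the 22.1% were both without ZnO replicate 1. Deviations of same-numbered arrays correlated at -0.14, 0.25 and -0.31, and those of other pairs of arrays at -0.47 to 0.39. With so few arrays, whether the replicate numbers pair them cannot be settled. With the replicate block 0 members passed the adjusted test and 2 rather than 4 had an unadjusted p under 0.05. Over all 20043 probes that unadjusted count was 957 rather than 1187. The number of members was 3 in 4 other alternatives. These kept dim probes (beside 1419 of 45583 probes), or kept only probes above background on each array (1113 of 18990). The others left out ZnO replicate 2 (885 of 20300) or ZnO replicate 3 (1033 of 20155). Spike-in centring moved the median of all probes, and every member with it, by 0.10. The log2 fold change moved by more than the SD between arrays for Sesn1 (0.26 with normexp), Bbc3 (-0.24 under median centring) and, under spike-in centring, Bbc3 (-0.10) and Bax (0.13), and in the deposited table for Sesn1, Fas (-0.17) and Bbc3. The cause was not tested. Tp53inp1, Fas, Bbc3, Cdkn1a and Sesn1 kept their sign under all alternatives, although Sesn1 left the test when only probes well above background on each array were kept. Sesn1 was the 1 member whose brightest tested probe was not well above background on every array.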
